A study of Arabidopsis thaliana with 12 samples.

Results

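The response of Arabidopsis leaf 3 to dexamethasone after 4 h was measured on 6 of the 12 arrays of the study: 3 from plants on dexamethasone (DEX) and 3 from plants on solvent alone (mock), taken as the arrays so titled in the labels. All plants were Col-0 carrying 35S::gai-GR, had grown for 9 days and had been moved for 4 h to medium with 5 µM dexamethasone in the DEX group or with DMSO in the mock group. The study's other 6 arrays are the same pair of groups after 1 h. Leaf 3 was cut out under a microscope from whole seedlings fixed in a preserving solution. Leaves came from 128 plants (in all or per sample is not stated), so each array reads pooled leaves, and the replicates are independent experiments.

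Gibberellins are plant hormones that promote growth by triggering the breakdown of DELLA proteins, nuclear repressors without a DNA-binding domain of their own that act through other transcription factors. The gibberellin receptor GID1 binds the hormone, then the DELLA protein, and the F-box protein SLY1 marks that DELLA for destruction. The gai protein is a form of the DELLA protein GAI that resists this breakdown. In gai-GR it is fused to the hormone-binding domain of the glucocorticoid receptor, which holds it outside the nucleus until dexamethasone is supplied. DELLA activity is known to feed back on its own pathway by raising transcripts for gibberellin synthesis and perception. The series title describes this tissue as proliferating.

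The 35S promoter drives gai-GR in most cell types, so the effector is not limited to the cells that make gai naturally. Mock plants carry the same transgene, and plants without it under dexamethasone are not analysed here, so an effect of dexamethasone itself and one of gai-GR cannot be told apart. Each value is a log2 level after the authors' RMA normalization, so a difference of 1 is a 2-fold change, and levels are not compared between genes. In pooled leaves, fewer cells of a type and less RNA per cell cannot be told apart. Probes of closely related genes can also bind each other's transcripts, which bears on the gene families below.

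Mock replicate 2 stood apart. Its median over all loci was 7.48 on the log2 scale, while the other 5 arrays of 4 h had medians of 7.74 to 7.78, and it correlated at 0.987 and 0.988 with the other mock arrays, which correlated with each other at 0.995 (across genes, as a description). It lay below the mean of the other 2 mock arrays by a median of 0.21 in the loci that rose, 0.14 in those that fell and 0.15 in all loci. Counts that change without it are therefore given both ways.

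A locus was called where limma's p, adjusted by Benjamini and Hochberg's method across all 21428 loci, was under 0.05. By this rule 1146 loci (5.35%) rose and 547 (2.55%) fell. Without mock replicate 2 the counts were 1008 rises (4.7%) and 1014 falls (4.73%), and 1446 of the 1693 calls remained. Whether called or not, the arrays of the groups did not overlap at 2790 loci with DEX higher (13%) and at 1573 with DEX lower (7.34%). Of the 1146 loci that rose, 274 did so at least 2-fold, as did 62 of the 547 that fell. With every array centred on its median, the log2 fold changes had a median of -0.09 over all loci, against 0.02 as deposited. That centring gave 868 rises and 1301 falls, 40.0% up against 67.7% up. Renewed quantile normalization gave 49.6% up. The share of rises among all calls thus depends on the scaling and on 1 array, and each group of genes is read against these background rates. After 1 h, 135 loci (0.63%) rose and 18 (0.084%) fell. At 4 h too, 130 of the 1 h rises were rises and 16 of the 1 h falls were falls, and 0 changed in opposite directions.

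The labelled tissue was checked against marker lists, each read between the groups and not against the others. The 18 light harvesting and chlorophyll genes had a median log2 level of 12.4 in DEX and 12.5 in mock, and the 10 leaf polarity genes had 9.65 and 9.69. The 12 shoot meristem and boundary markers had median levels of 5.78 in DEX and 6.11 in mock, near the lower quartile of an array (5.79 in the lowest), and 2 of them lay under it in all 6 arrays. Their summed linear level ran from 749 to 811 in DEX and from 1028 to 1088 in mock, with no overlap, and their part in the results was not tested. Summed root markers (10 genes) ran from 708 to 751 in DEX and from 788 to 793 in mock. Summed vascular markers (8 genes) overlapped, at 791 to 825 in DEX and 736 to 881 in mock. Of the root markers 0 of 10 passed by limma, with 1 at an unadjusted p under 0.05, and of the vascular markers 0 of 8, with 0 at that level. Without mock replicate 2, 1 vascular marker fell, and without DEX replicate 1, 1 root marker.

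Of the meristem and boundary markers themselves, 4 of 12 fell and none rose, with a median log2 fold change of -0.35 against 0.02 for all loci. Without mock replicate 2, 5 fell, where falls over all loci went from 2.55% to 4.73%. KNAT1 (AT4G08150), a homeobox gene that keeps meristem cells undifferentiated, read 5.99, 6.14 and 5.60 in DEX replicates 1 to 3, against 7.11, 7.11 and 7.50 in mock, and fell by 1.33 (SE 0.14, adjusted p = 1.91e-05). The groups did not overlap. CUC3 (AT1G76420), which sets organ boundaries, fell by 0.47 (SE 0.10, adjusted p = 0.0100), with a DEX mean under the lower quartile of every array. The stem cell gene WUS (AT2G17950) and the boundary gene CUC1 (AT3G15170) were under it in both groups.

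The genes that make gibberellin and those that perceive it rose. Of 17 genes for synthesis and receptors, 10 rose and none fell, with a median log2 fold change of 0.52; without mock replicate 2 it was 8 and none, and 8 kept the call whichever of the 6 arrays was left out. The log2 fold changes of GA20OX1, GA20OX2, GA20OX3 and GA3OX1, late oxidases of the route, lay between 4.13 and 5.34, while GA20OX4, GA20OX5, GA3OX3 and GA3OX4 did not pass, at -0.13 to 0.08. GA20OX3 (AT5G07200) read 10.78, 10.24 and 10.14 in DEX, against 5.43, 5.65 and 5.75 in mock. Its mock level lay under the lower quartile of every array. GA20OX2 (AT5G51810) read 11.91, 11.80 and 11.93 in DEX and 6.48, 6.26 and 6.88 in mock. The response of GA20OX3 was larger at 4 h than at 1 h by 2.95 on the log2 scale (SE 0.23, adjusted p of the difference 2.09e-05), while that of GA20OX1 (AT4G25420) differed by 0.25 between the times (adjusted p = 0.750). For the difference of the responses, 274 loci (1.28%) passed, or 412 without mock replicate 2.

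Of 5 genes for the early steps of the route, GA1 and GA3 rose. GA2, CYP88A3 (KAO1) and KAO2 did not pass, at 0.05, -0.04 and 0.26. GA3 (AT5G25900), the ent-kaurene oxidase, read 11.29, 11.26 and 11.40 in DEX, against 10.57, 10.25 and 10.45 in mock, a rise of 0.90 (SE 0.10, adjusted p = 2.55e-05). All DEX arrays exceeded all mock arrays. Its log2 fold change was 0.08 at 1 h, and the difference between the times was 0.82 (adjusted p = 0.00739). GA1 (AT4G02780), which forms the precursor copalyl diphosphate, rose by 0.52 (adjusted p = 0.0312), but lost the call without any 1 of 4 arrays, at up to 0.128 without DEX replicate 2. GA3OX2 (AT1G80340), a minor relative of GA3OX1 (AT1G15550) in the last activating step, rose by 0.74 (SE 0.15, adjusted p = 0.00564).

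All 3 receptor genes rose, by different amounts. GID1B (AT3G63010) read 10.23, 10.06 and 10.07 in DEX and 7.75, 7.03 and 7.61 in mock, a 6.31-fold rise. GID1A (AT3G05120) read 10.26, 9.97 and 10.06 in DEX and 9.23, 8.85 and 9.09 in mock, a 2.06-fold rise (log2 1.04, SE 0.11, adjusted p = 3.27e-05). GID1C (AT5G27320) rose by 0.44 (adjusted p = 0.0222) and lost the call without any 1 of 3 arrays, at up to 0.102 without DEX replicate 1. Of 7 genes that inactivate gibberellin, GA2OX2 (AT1G30040) alone was called, with and without mock replicate 2 (2 fell without DEX replicate 1). It read 6.40, 6.47 and 6.22 in DEX, against 7.23, 7.02 and 6.94 in mock, and fell by 0.70 (SE 0.12, adjusted p = 0.00132). In the group means, 4 of the 7 lay under the lower quartile of every array in both groups.

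Among 10 DELLA genes and partners, 3 rose and 2 fell (2 and 2 without mock replicate 2), and the DELLA genes did not move as one. RGA (AT2G01570) read 9.38, 9.39 and 9.42 in DEX, against 10.58, 10.27 and 10.27 in mock, and fell 1.97-fold. RGL1 (AT1G66350) fell by 0.51 (SE 0.10, adjusted p = 0.00497), with a log2 fold change of 0.02 at 1 h. RGL2 (AT3G03450) and RGL3 (AT5G17490) were low in both groups, with log2 fold changes of 0.08 and -0.09 that did not pass. GAI (AT1G14920), whose probes can also read the transgene, read 12.95, 12.91 and 12.97 in DEX and 12.90, 12.97 and 12.95 in mock. SCL3 (AT1G50420), a GRAS protein that opposes DELLA action, rose 3.89-fold. GAF1 (AT3G50700, IDD2 in the reference), a zinc finger protein through which DELLAs act on GA20OX2, rose by 0.45 (SE 0.10, adjusted p = 0.00956). SLY1 (AT4G24210) rose by 0.50 (adjusted p = 0.0326), and that call ended without any 1 of 4 arrays, at up to 0.142 without DEX replicate 2.

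**Figure D1:**
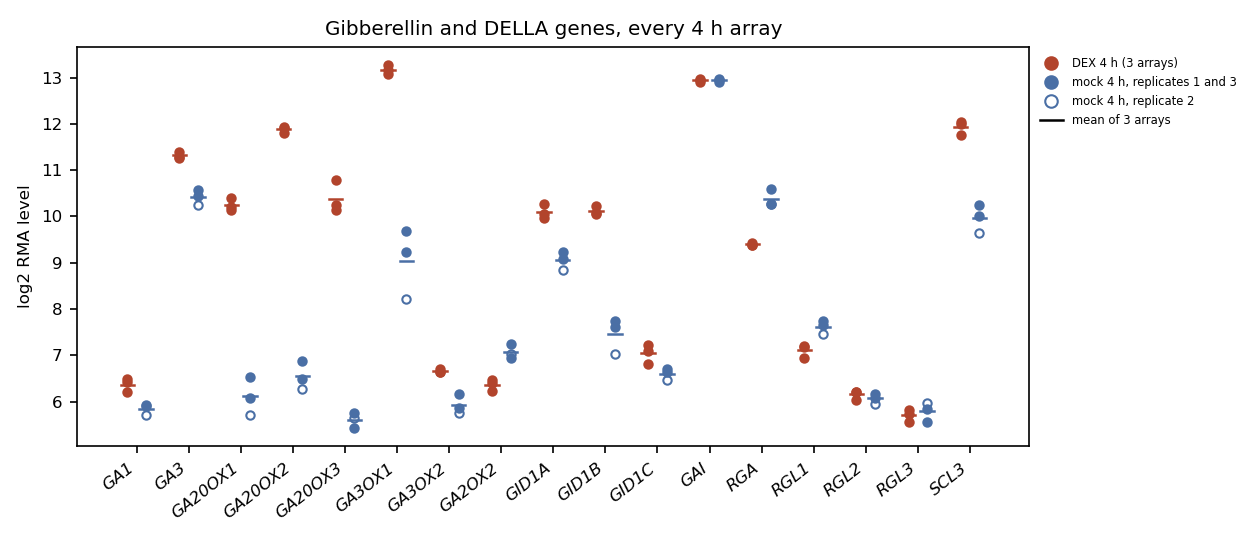
Log2 RMA level (vertical axis) of gibberellin and DELLA genes in each DEX and mock array of 4 h; lines are means of 3 arrays and open circles mock replicate 2. The DEX points of GA20OX2 lie between 11.80 and 11.93 and its mock points between 6.26 and 6.88, RGA is lower in DEX, and GAI overlaps.

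Genes at both ends of the anthocyanin pathway rose. Anthocyanins are red and purple flavonoid pigments made from phenylalanine by a chain of enzymes under a complex of MYB, bHLH and WD40 proteins. All 6 members counted in the list of anthocyanin enzymes and transport rose, with a median log2 fold change of 2.64. All 6 kept the call whichever array was left out. The list includes TT7, described below among the steps into flavonoids, so not every member is particular to the coloured end. AT4G14090, listed as UGT75C1, was measured but not counted because its name was unmatched, and is given below. Of 20 phenylpropanoid and flavonol genes, which include steps shared with other products, 9 rose and none fell (median 0.49). Without mock replicate 2 it was 7 up and 1 down.

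At the head of the chain, PAL1 (AT2G37040), the phenylalanine ammonia-lyase, read 11.58, 11.57 and 11.47 in DEX, against 8.86, 8.33 and 9.02 in mock, a 6.97-fold rise (log2 2.80, SE 0.14, adjusted p = 1.6e-08). Its relative PAL2 (AT3G53260) read 11.28, 11.43 and 11.12 in DEX and 10.61, 10.33 and 10.64 in mock, a 1.68-fold rise. Both genes were higher in every DEX array than in any mock array. C4H (AT2G30490), the next hydroxylase, rose by 0.92 (SE 0.12) and 4CL3 (AT1G65060), the ligase, by 0.70 (SE 0.14, adjusted p = 0.00458).

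The steps into flavonoids followed. TT4 (AT5G13930), the chalcone synthase, read 12.02, 11.71 and 11.86 in DEX, against 10.55, 9.64 and 10.57 in mock, a 3.06-fold rise, and F3H (AT3G51240), the flavanone hydroxylase, rose 3.16-fold. TT5 (AT3G55120), the chalcone isomerase between them, had a log2 fold change of 0.56 (SE 0.21, adjusted p = 0.125) and overlapped between the groups; without mock replicate 1 it was 0.84 and passed. TT7 (AT5G07990), the flavonoid 3'-hydroxylase, read 9.97, 9.96 and 9.82 in DEX and 6.85, 6.97 and 7.14 in mock, a 7.61-fold rise. FLS1 (AT5G08640), which diverts the chain to colourless flavonols, rose by 0.74 (adjusted p = 0.0241), and its call ended without any 1 of 3 arrays, at up to 0.104 without DEX replicate 3, and its log2 fold change was 0.49 without mock replicate 2. Of the flavonol regulators, MYB111 (AT5G49330) rose by 0.70 (SE 0.12, adjusted p = 0.00161) and MYB12 (AT2G47460) had a log2 fold change of -0.06 (adjusted p = 0.875).

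DFR (AT5G42800), the reductase that commits the chain to anthocyanin, lay between 11.84 and 12.13 in the 3 DEX arrays, against 8.68, 7.85 and 9.32 in mock. Its mock arrays were spread over more than a log2 unit, and the lowest DEX array lay above the highest of them. UGT78D2 (AT5G17050), which attaches glucose to the pigment, rose 5.68-fold (adjusted p = 9.88e-07), UF3GT (AT5G54060), which extends that sugar, 6.85-fold, and AT5MAT (AT3G29590), a malonyltransferase, 3.13-fold. GSTF12 (AT5G17220), which helps carry the pigment to the vacuole, read 11.75, 11.55 and 11.58 in DEX, against 9.45, 8.99 and 9.91 in mock, a 4.53-fold rise. AT4G14090, a locus that the reference gives without a symbol, was among the 25 largest rises and rose 7.38-fold.

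Of 12 anthocyanin regulators, 4 rose, with and without mock replicate 2, and none fell with it; 1 fell without it. PAP1 (AT1G56650), a MYB activator, read 10.97, 11.26 and 11.16 in DEX, against 7.40, 6.65 and 7.67 in mock. MYB90 (AT1G66390, also PAP2), its close relative, read 7.50, 7.81 and 7.59 in DEX and 6.16, 6.29 and 6.05 in mock, a 2.75-fold rise. TT8 (AT4G09820), the bHLH partner, read 7.85, 7.36 and 7.52 in DEX, against 5.63, 5.52 and 5.97 in mock, where its mean lay under the lower quartile of every array. MYBL2 (AT1G71030), a MYB protein that represses the same pathway, rose 3.58-fold (adjusted p = 4.87e-06), so an inhibitor rose along with the activators. The other partners did not pass: EGL3 (AT1G63650) had a log2 fold change of -0.18 and TTG1 (AT5G24520), the WD40 protein, of 0.31 (adjusted p = 0.0750).

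The counted members of the anthocyanin enzyme list responded more at 4 h than at 1 h. PAP1 already had a log2 fold change of 1.37 at 1 h (SE 0.25), and at that time 0 of the 6 anthocyanin enzymes and 0 of the 20 phenylpropanoid and flavonol genes passed by limma. For DFR the log2 fold change was -0.05 at 1 h, with a difference of 3.42 between the times (adjusted p = 0.000655). For PAL1 it was 0.29, with a difference of 2.51 (adjusted p = 2.09e-05). The mean levels of DFR were 10.50 in DEX and 10.55 in mock at 1 h, and 11.99 and 8.62 at 4 h. Those of PAL1 were 10.03 and 9.74 at 1 h, and 11.54 and 8.74 at 4 h. Both mock means were lower at 4 h, so the differences include that change as well as the rise in DEX. The difference between the times passed for all 6 counted members of the anthocyanin enzyme list.

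**Figure D2:**
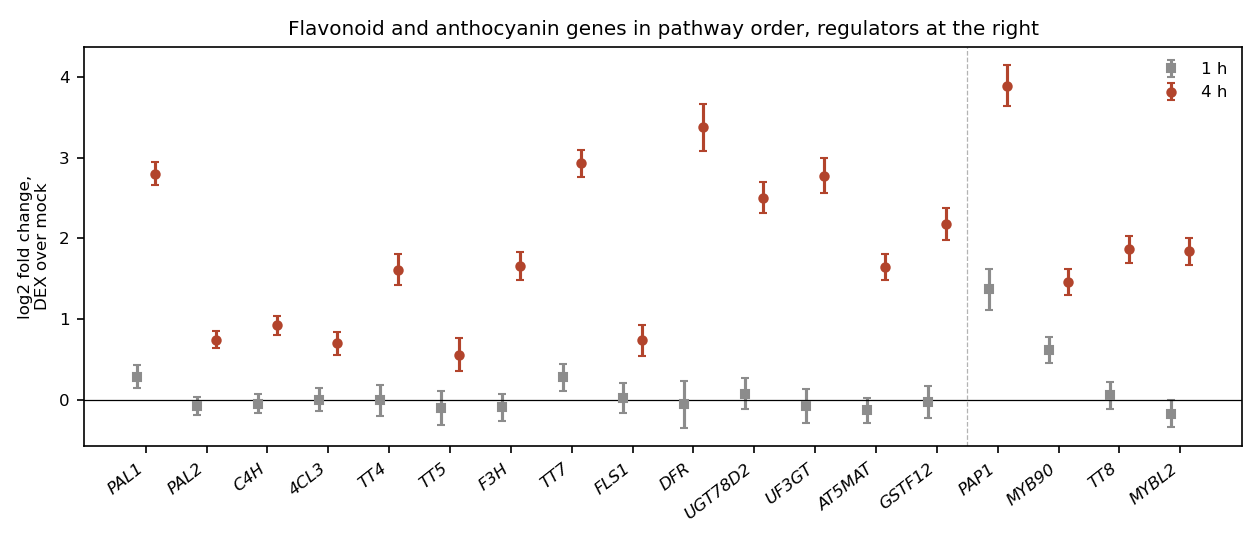
Log2 fold change of DEX over mock (vertical axis, with SE) after 1 h and 4 h for flavonoid and anthocyanin genes in pathway order, with regulators right of the dashed line. At 4 h DFR stands at 3.37 and TT7 at 2.93, while TT5 and FLS1 stand at 0.56 and 0.74; at 1 h PAP1, at 1.37, is the highest.

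Kelch F-box proteins that mark phenylalanine ammonia-lyase for destruction were counted through 4 genes, of which 3 rose, with and without mock replicate 2. AT1G23390, listed with them as KFB-CHS, is named for chalcone synthase and not for phenylalanine ammonia-lyase. It was measured but not counted because its name was unmatched. It fell by 1.52 (SE 0.11, adjusted p = 5.16e-07), and by 0.69 at 1 h (adjusted p = 0.00600). KFB50 (AT3G59940) read 9.99, 10.12 and 10.06 in DEX, against 9.04, 8.50 and 8.95 in mock, a 2.34-fold rise (adjusted p = 1.02e-05). KFB1 (AT1G15670) read 9.28, 9.00 and 9.01 in DEX and 7.95, 8.40 and 7.78 in mock, a 2.08-fold rise. KFB20 (AT1G80440) rose by 0.72 (adjusted p = 0.0283), but the call ended without any 1 of 4 arrays, at up to 0.137 without DEX replicate 2. These 3 were also the counted members called at 1 h, with log2 fold changes of 0.93, 1.25 and 0.90, when PAL1 was not called. KFB39 (AT2G44130) was called at neither time.

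Other genes among the 25 largest rises work in transport, transcription and signalling. PUP1 (AT1G28230), a purine permease that can carry cytokinins, read 10.10, 10.05 and 10.34 in DEX, against 7.26, 6.76 and 7.36 in mock, and was the 1 of 9 measured PUP genes that rose. CRK12 (AT4G23200), a cysteine-rich receptor-like kinase, read 9.00, 9.07 and 9.34 in DEX and 5.85, 5.84 and 5.91 in mock. Both had responded little at 1 h, by 0.34 and 0.48, and both differences between the times passed (2.70 and 2.79). MYB56 (AT5G17800), a MYB factor, rose 6.54-fold (log2 2.71, SE 0.14), 2.18 more than at 1 h. OPT1 (AT5G55930), an oligopeptide transporter, rose 6.20-fold, and BZS1 (AT4G39070), a B-box zinc finger protein that restrains brassinosteroid responses and promotes light responses, 6.36-fold. MEE3 (AT2G21650), a small MYB-like protein, read 9.75, 9.99 and 9.26 in DEX, against 6.66, 6.68 and 6.64 in mock. LBD40 (AT1G67100), of the LOB domain family, rose 6.26-fold. Of the loci without a symbol, AT5G65040 rose 10.0-fold, AT2G39980 7.05-fold, AT4G15160 6.17-fold and AT5G45650 6.14-fold. The mock arrays of AT5G45650 were spread from 6.49 to 8.32, all below its lowest DEX array at 9.85.

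UGT enzymes attach sugars to hormones, pigments and other small molecules. Of 54 measured loci with a UGT symbol, 11 rose and 1 fell, with and without mock replicate 2. Of the 11, 10 kept the call whichever array was left out. UGT85A1 (AT1G22400), which can glycosylate cytokinins, read 10.88, 10.90 and 10.72 in DEX, against 9.45, 9.36 and 9.37 in mock. UGT73C1 (AT2G36750), also active on cytokinins, read 7.54, 7.78 and 8.26 in DEX and 5.51, 5.37 and 5.32 in mock, which lie under the lower quartile of every array. UGT74D1 (AT2G31750), which acts on auxins, rose 3.21-fold. Of a pair that glycosylates salicylic acid, UGT74F2 (AT2G43820) rose 2.49-fold and UGT74F1 (AT2G43840) fell by 0.66 (SE 0.09, adjusted p = 0.000173).

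Cysteine-rich receptor-like kinases rose in 6 of 34 members and fell in 1, against 6 and 0 without mock replicate 2. After CRK12 the largest rise in the family was 0.95 (adjusted p = 0.0108). CRK29 (AT4G21410) rose by 0.74 (SE 0.12, adjusted p = 0.00136) and CRK19 (AT4G23270) by 0.64. With arrays centred on the median, the wider family by symbol (36 loci, 2 of other kinase groups) had 7 rises and 4 falls, against 7 and 1 as deposited.

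WRKY factors regulate defence and senescence. Of 58 measured loci with a WRKY symbol, 8 rose and 1 fell (6 and 1 without mock replicate 2, and 5 and 2 when centred). Of the 15 set apart for defence, 4 rose and none fell (median 0.19), and 3 without mock replicate 2. WRKY70 (AT3G56400), a factor of salicylic acid responses, read 8.54, 8.56 and 8.69 in DEX, against 6.88, 6.48 and 7.06 in mock. WRKY15 (AT2G23320) read 10.25, 10.26 and 9.87 in DEX, against 8.58, 8.39 and 8.60 in mock, and rose 3.04-fold after 0.25 on the log2 scale at 1 h. WRKY18 (AT4G31800) had the same log2 fold change, 2.46, at both times. WRKY27 (AT5G52830) and WRKY53 (AT4G23810) rose by 1.34 and 0.80 above mock means under the lower quartile of every array.

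Other families, counted by their symbols in the reference, gave mixed counts. Family members without such a symbol were not counted. Of 9 loci with a SAUR symbol, small auxin-responsive genes, 3 rose and none fell. When arrays were centred 2 rose and 3 fell, and without mock replicate 2 it was 2 and 1. SAUR9 (AT4G36110) read 8.63, 8.94 and 8.32 in DEX, against 5.54, 5.41 and 5.43 in mock, under the lower quartile, and SAUR36 (AT2G45210), known to promote leaf senescence, rose 4.50-fold. Over all loci 5.35% rose and 2.55% fell. Glutathione transferase genes rose in 5 of 42 (11.9%) and fell in 2 (4.76%), or 6 and 3 without mock replicate 2 and 5 and 5 when centred. ABCG transporter genes rose in 5 of 38 (13.2%) and fell in 4 (10.5%), or 4 and 4 without mock replicate 2. NAC factors rose in 2 of 67 and fell in 2 (2.99% each), with and without that array, against 5.35% and 2.55% of all loci. Of 194 cytochromes P450 (CYP), 11 rose (5.67%) and 8 fell (4.12%), near the 5.35% and 2.55% of all loci, and falls outnumbered rises without mock replicate 2 (9 rises and 10 falls) and when arrays were centred (9 and 12). NAC047 (AT3G04070) rose 3.22-fold, CYP71B22 (AT3G26200) 4.25-fold and ABCG22 (AT5G06530), a transporter that limits water loss by stomata, 2.02-fold, while ABCG35 (AT1G15210) fell 2.15-fold. MYB factors rose in 8 of 116 (6.90%) and fell in 6 (5.17%), against 5.35% and 2.55% of all loci. Without mock replicate 2 it was 5 and 10, where 4.7% of all loci rose and 4.73% fell. MYB34 (AT5G60890), an activator of indole glucosinolate synthesis, fell by 1.10 (SE 0.11), and MYB3 (AT1G22640), a repressor of phenylpropanoid genes, by 0.80 (SE 0.08). Of 8 CML genes 0 passed by limma, with 0 at an unadjusted p under 0.05.

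DNA replication genes fell, and genes of mitosis did not pass. Of 22 measured replication genes, 13 fell and none rose, with a median of -0.52. Without mock replicate 2, 18 fell, and with any 1 array left out the number stayed between 12 and 18. Of the 13, 11 kept the call whichever array was left out. At 1 h 0 of the 22 passed by limma.

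Genes of several stages of replication fell. Among the genes that license origins, CDT1A (AT2G31270) read 8.88, 8.78 and 8.74 in DEX, against 9.69, 9.35 and 9.84 in mock. CDC6 (AT2G29680) fell by 0.69 (SE 0.13, adjusted p = 0.00382), and ORC2 (AT2G37560), of the origin recognition complex, read 7.57, 7.63 and 7.60 in DEX, against 8.27, 8.00 and 8.54 in mock, a fall of 0.67. The MCM helicase subunit genes MCM2 (AT1G44900), MCM4 (AT2G16440) and PRL (AT4G02060, MCM7) fell by 0.66, 0.56 and 0.63. MCM3 (AT5G46280) fell by 0.49 (adjusted p = 0.0131) and lost the call without DEX replicate 1, at 0.0628. ETG1 (AT2G40550), a replisome factor that interacts with the helicase, fell by 0.63 (SE 0.12, adjusted p = 0.00289).

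Genes of DNA synthesis fell as well. PCNA1 (AT1G07370), the sliding clamp, read 11.54, 11.62 and 11.29 in DEX, against 12.22, 12.11 and 12.19 in mock. RNR1 (AT2G21790) and TSO2 (AT3G27060), subunits of the enzyme that makes deoxynucleotides, fell by 0.47 and 0.56. CYCA3;1 (AT5G43080), a cyclin of the G1 and S phases, read 8.70, 8.84 and 8.60 in DEX and 9.58, 9.34 and 9.68 in mock, a fall of 0.82. FAS1 (AT1G65470), which helps load histones on new DNA, fell by 0.46 (adjusted p = 0.0238) and lost the call without any 1 of 3 arrays, at up to 0.0884 without DEX replicate 3.

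Core histones gave a count that rests on mock replicate 2. Over all loci 547 fell (2.55%), against 1014 (4.73%) without that array and 1301 when arrays were centred. Of 14 histone genes, 1 fell (7.14%) and none rose (median -0.22), against 6 falls without that array and 7 when centred. The 1 is a histone H3 gene, AT5G10390, which read 11.12, 11.10 and 11.38 in DEX, against 11.86, 11.75 and 11.86 in mock, a fall of 0.62 (SE 0.11, adjusted p = 0.00258).

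In mitosis and cytokinesis, 0 of 17 genes passed by limma and 0 had an unadjusted p under 0.05. Their median was 0.00, or -0.06 without mock replicate 2, and 1 fell when arrays were centred. CYCB1;1 (AT4G37490), the mitotic cyclin, read 10.22, 10.01 and 10.23 in DEX and 10.48, 9.91 and 10.15 in mock. The cytokinesis syntaxin gene SYP111 (AT1G08560, KNOLLE) read 12.30, 12.49 and 12.41 in DEX and 12.48, 12.45 and 12.37 in mock. Both overlapped between the groups. Of 21 D-type cyclins, CDK inhibitors and regulators of the anaphase-promoting complex, 1 rose and 1 fell (4.76% each). Over all loci 5.35% rose and 2.55% fell. The falls numbered 2 without mock replicate 2 and 0 without DEX replicate 1 or 3 or mock replicate 1, and the rises 2 without mock replicate 3. ICK1 (AT2G23430, KRP1), a CDK inhibitor, read 6.25, 6.46 and 6.69 in DEX, against 5.78, 5.84 and 5.98 in mock, a rise of 0.60 (SE 0.13, adjusted p = 0.00783). CYCD3;1 (AT4G34160), a cyclin that keeps leaf cells dividing, had a log2 fold change of -0.07 (adjusted p = 0.777).

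**Figure D3:**
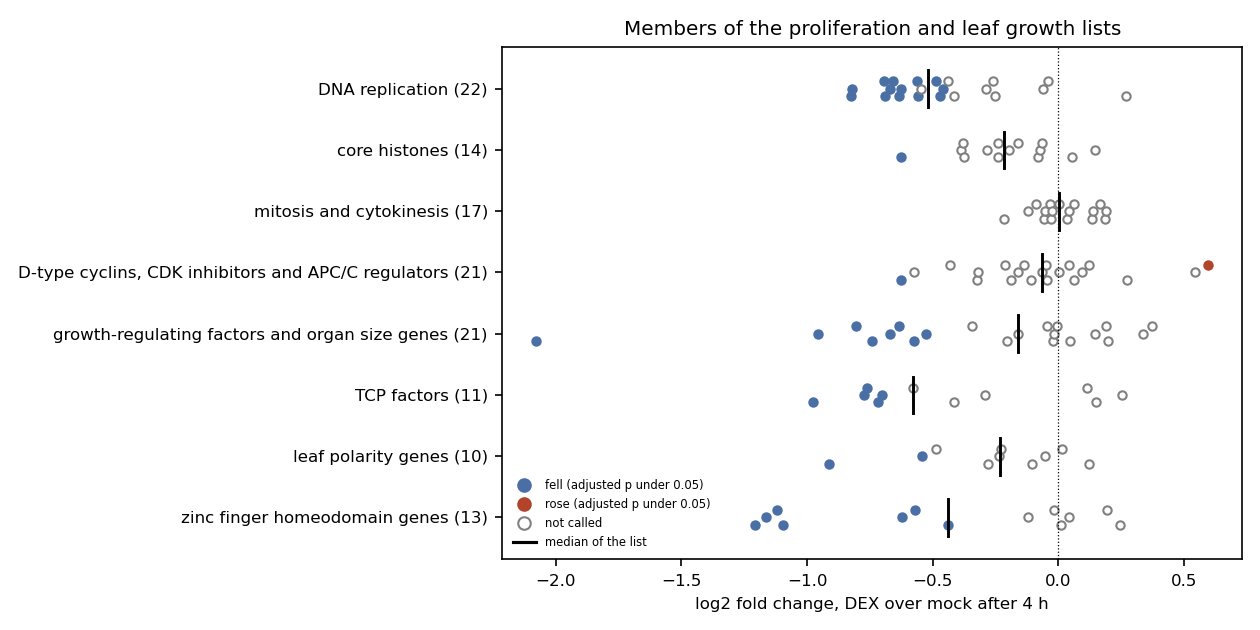
Log2 fold change of DEX over mock after 4 h (horizontal axis) for each measured member of 8 groups of genes; filled points passed and bars are medians. Replication genes have a median of -0.52, mitosis genes of 0.00 and TCP factors of -0.58.

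Some growth regulators of the leaf fell. Of 21 growth-regulating factors and organ size genes, 8 fell and none rose (median -0.16), or 9 without mock replicate 2, and 7 kept the call whichever array was left out. KLU (AT1G13710), whose cytochrome P450 enzyme enlarges organs from cell to cell, read 8.93, 8.58 and 7.96 in DEX, against 10.27, 10.68 and 10.76 in mock, the deepest fall among loci whose groups do not overlap. Its relative CYP78A7 (AT5G09970) fell by 0.74 (SE 0.12, adjusted p = 0.000753). GRF5 (AT3G13960), a growth-regulating factor that prolongs division, read 8.51, 8.61 and 8.47 in DEX and 9.63, 9.31 and 9.53 in mock. Its response differed from that at 1 h, which was 0.27, by -1.23 (adjusted p = 0.000383). GRF3 (AT2G36400) fell by 0.53 and GRF6 (AT2G06200) by 0.67, while GIF1 (AT5G28640, AN3), their coactivator, fell by 0.80 (SE 0.12, adjusted p = 0.000368). ANT (AT4G37750), which maintains growth competence, read 10.97, 11.03 and 10.41 in DEX, against 11.47, 11.41 and 11.43 in mock, a fall of 0.63. ARGOS (AT3G59900), an auxin-responsive promoter of organ size, did not pass (0.34, adjusted p = 0.496).

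TCP factors set the timing of division and differentiation. Of 11 genes, 5 fell and none rose (median -0.58). Without mock replicate 2, 6 fell, without DEX replicate 3, 7, without DEX replicate 1 or mock replicate 1, 3, and without DEX replicate 2 or mock replicate 3, 2. The 2 that fell in each case are TCP17 (AT5G08070), which read 6.59, 6.71 and 6.86 in DEX, against 7.87, 7.60 and 7.60 in mock, and TCP14 (AT3G47620), a factor that binds DELLA proteins and promotes growth of internodes, which read 9.30, 9.05 and 9.60 in DEX and 10.31, 9.90 and 10.07 in mock. TCP4 (AT3G15030) had a log2 fold change of 0.11 (adjusted p = 0.834).

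Of 10 leaf polarity genes, 2 fell and none rose (median -0.23), against 4 without mock replicate 2 and 1 without DEX replicate 1 or 2 or mock replicate 3. AS1 (AT2G37630), a MYB protein that keeps meristem genes off in leaves, read 10.74, 10.60 and 10.34 in DEX, against 11.67, 11.16 and 11.60 in mock, and fell by 0.91 (SE 0.14, adjusted p = 0.000469).

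Homeobox genes whose symbol begins with HB, haemoglobin genes left out, fell in 10 of 36 and rose in 1 (12 and 1 without mock replicate 2). The zinc finger homeodomain genes, plant-specific factors, account for 7 of these falls. They were grouped after their values were seen, from synonyms in the reference: 7 of 13 fell and none rose, with a median of -0.44, and 5 kept the call whichever array was left out. HB25 (AT5G65410) read 10.36, 10.13 and 10.08 in DEX, against 11.44, 11.18 and 11.45 in mock. HB28 (AT3G50890) read 5.95, 6.34 and 6.34 in DEX and 7.43, 7.42 and 7.40 in mock, a fall of 1.21 (SE 0.13, adjusted p = 3.57e-05). HB31 (AT1G14440) and HB33 (AT1G75240) fell by 1.12 and 1.10. For HB25 and HB33 the responses at 1 h, -0.15 and 0.06, differed from those at 4 h (adjusted p = 0.00314 and 0.00252). HB5 (AT5G65310), of another homeodomain class, fell by 0.80 (SE 0.10).

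**Figure D4:**
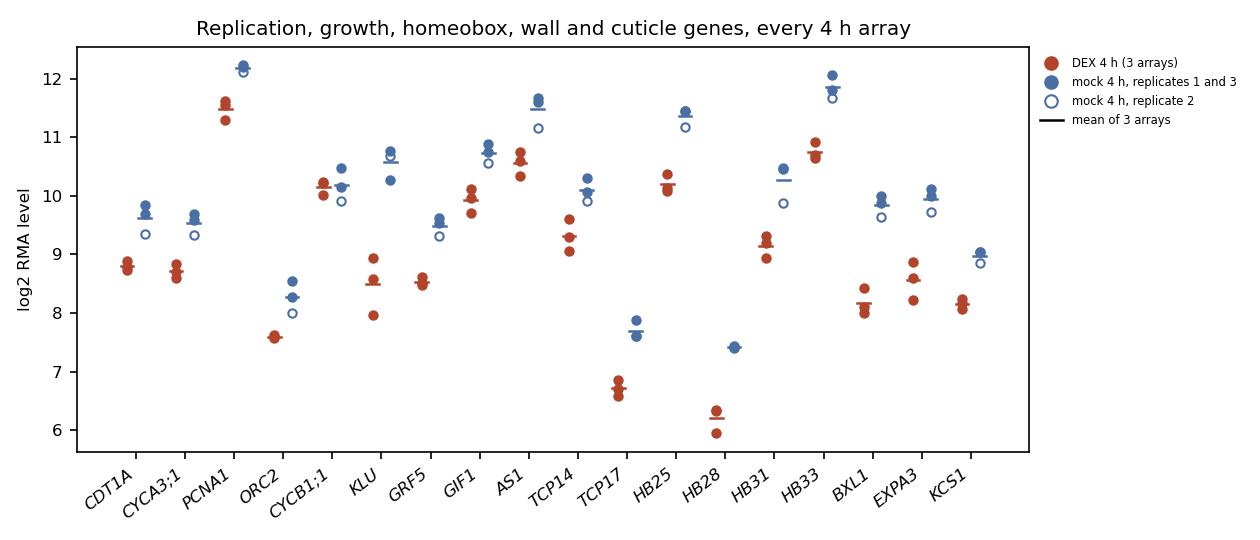
Log2 RMA level (vertical axis) of replication, growth, homeobox, wall and cuticle genes in each DEX and mock array of 4 h; lines are means of 3 arrays and open circles mock replicate 2. KLU runs from 7.96 to 8.93 in DEX and from 10.27 to 10.76 in mock, and CYCB1;1 overlaps.

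A few wall genes were called in each direction. Of 7 listed beta-xylosidase genes, 3 were left out because their names did not match the reference. Of 4 beta-xylosidase genes, whose enzymes trim xylan and arabinan, BXL1 (AT5G49360) read 8.42, 8.10 and 8.01 in DEX, against 9.88, 9.63 and 9.99 in mock, and BXL2 (AT1G02640) 8.44, 8.46 and 7.77 in DEX, against 9.73, 9.63 and 9.63 in mock. The third that passed, XYL4 (AT5G64570), rose by 0.94 (SE 0.10, adjusted p = 3.71e-05). Of 14 alpha-expansins, which loosen walls, 1 rose (7.14%) and 2 fell (14.3%), against 5.35% and 2.55% of all loci. Their median was -0.14, and without mock replicate 2 it was 1 rise and 3 falls. EXPA3 (AT2G37640) read 8.60, 8.23 and 8.88 in DEX and 10.11, 9.72 and 9.99 in mock, and EXPA6 (AT2G28950) fell by 0.65 (SE 0.09). EXPA10 (AT1G26770) rose by 0.51 (adjusted p = 0.0129), but not without DEX replicate 3, at 0.0553.

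Of 17 xyloglucan enzymes, 1 rose (5.88%) and 2 fell (11.8%), against 5.35% and 2.55% of all loci. Their median was 0.01, and without mock replicate 2 it was 1 rise and 3 falls. XTH15 (AT4G14130) read 11.09, 10.92 and 11.12 in DEX, against 8.62, 8.12 and 8.46 in mock, a 6.26-fold rise, which was larger than at 1 h by 1.46 (adjusted p = 0.000577). XTH16 (AT3G23730) and XTH28 (AT1G14720) fell by 0.68 and 0.45. Of 12 cellulose synthesis genes 2 rose and none fell, but 0 passed by limma when arrays were centred, 1 under renewed quantile normalization, 1 without any of 4 single arrays and 0 without DEX replicate 3. The 2 are CESA5 (AT5G09870) and CESA6 (AT5G64740), subunits of the primary wall enzyme, at 0.39 and 0.29 (adjusted p = 0.0124 and 0.0423).

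Cuticle genes fell more often than they rose. Of 28 genes for waxes, cutin and very-long-chain fatty acids, 6 fell and 1 rose (median -0.23). The falls numbered 11 without mock replicate 2, 3 without DEX replicate 2, 4 without DEX replicate 3 or mock replicate 3 and 13 when arrays were centred. Over all loci 547 fell (2.55%), against 1014 (4.73%) without mock replicate 2 and 1301 when centred. KCS1 (AT1G01120), a fatty acid elongase, read 8.23, 8.08 and 8.16 in DEX, against 9.05, 8.85 and 9.05 in mock, a fall of 0.82 (SE 0.09, adjusted p = 2.87e-05). CER3 (AT5G57800), of wax alkane synthesis, read 9.81, 9.78 and 9.84 in DEX and 10.39, 10.50 and 10.41 in mock, a fall of 0.62. These 2 falls held whichever array was left out. MYB96 (AT5G62470), known as an activator of wax genes in drought, read 7.93, 8.02 and 7.88 in DEX, against 7.25, 6.90 and 6.77 in mock, a rise of 0.97. Of all 19 KCS elongase genes, 4 fell and none rose (7 without mock replicate 2, 2 without mock replicate 3), KCS12 (AT2G28630) by 0.82. ADS1 (AT1G06080), an acyl desaturase, read 6.87, 7.23 and 6.86 in DEX, against 8.41, 8.20 and 8.61 in mock.

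Brassinosteroid genes rose in 3 of 9 members, with and without mock replicate 2, and none fell, although 1 did when arrays were centred or mock replicate 1 was left out. The rises numbered 2 without DEX replicate 2 and 4 without mock replicate 3. BR6OX2 (AT3G30180), which makes brassinolide, read 10.92, 10.86 and 10.73 in DEX, against 8.76, 8.24 and 8.80 in mock. It rose more than at 1 h, by 1.58 (adjusted p = 0.00142). BAS1 (AT2G26710), which inactivates the hormone, read 10.20, 10.08 and 9.78 in DEX and 8.69, 8.48 and 8.52 in mock. DWF4 (AT3G50660), an early enzyme, rose by 0.62 (adjusted p = 0.0100), and the call ended without DEX replicate 2, at 0.0501.

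The other hormone and stress lists gave these counts. Of 17 jasmonate repressors and synthesis genes, JAZ6 (AT1G72450), a repressor, alone was called, with a rise of 0.69 (SE 0.15, adjusted p = 0.00738). That is 5.88% of the list, where 5.35% of all loci rose. Without mock replicate 2, 1 rose and 1 fell. Of 20 ethylene and stress ERF genes, 4 rose (20%) and 1 fell (the same counts without mock replicate 2), while 2 rose without DEX replicate 2 and 2 fell without mock replicate 3. ERF2 (AT5G47220) read 8.61, 8.51 and 8.39 in DEX, against 7.73, 7.62 and 7.62 in mock, and ERF9 (AT5G44210) fell by 0.63 (SE 0.11). Of 19 abscisic acid and cold genes, 2 rose (10.5%) and 1 fell (5.26%), against 5.35% and 2.55% of all loci. Without mock replicate 2 it was 2 and 2, and there were 0 falls without any 1 of the other 5 arrays. XERICO (AT2G04240), which promotes abscisic acid accumulation, read 12.21, 12.13 and 12.01 in DEX and 8.79, 8.89 and 9.14 in mock. LTI78 (AT5G52310, RD29A), a dehydration and cold response gene, read 9.68, 10.24 and 10.93 in DEX, against 8.73, 8.60 and 8.86 in mock. Its DEX arrays were spread by more than a log2 unit and all exceeded the mock arrays, and its response was larger than at 1 h by 1.92 (adjusted p = 0.00696).

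Genes of epidermal cell types were also called. Of 12 guard cell and stomatal lineage genes, 3 rose and none fell, 2 without mock replicate 1, 2 or 3 and 1 without DEX replicate 2 or 3. Their summed linear level ran from 5612 to 6046 in DEX and from 3846 to 5013 in mock. KAT2 (AT4G18290), a guard cell potassium channel, read 9.24, 8.89 and 9.45 in DEX, against 8.28, 6.77 and 8.14 in mock, where replicate 2 lay far below the others; it rose 2.76-fold, or by 0.99 on the log2 scale without that array. The stomatal fate genes SPCH (AT5G53210), MUTE (AT3G06120) and FMA (AT3G24140, FAMA) did not pass, at 0.11, 0.08 and -0.10. Of 10 trichome fate genes, 1 rose and 4 fell (1 and 3 without mock replicate 2, 2 falls without DEX replicate 2 or 3 and 1 without mock replicate 1). Their sum ran from 2431 to 2455 in DEX and from 2319 to 2979 in mock. TTG2 (AT2G37260), a WRKY factor of trichome development, read 9.16, 9.03 and 8.68 in DEX, against 7.79, 7.84 and 7.96 in mock, and GL1 (AT3G27920, MYB0), the MYB factor that starts trichomes, fell by 0.85 (SE 0.18, adjusted p = 0.00826).

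Of 18 light harvesting and chlorophyll genes, 1 rose (5.56%) and 4 fell (22.2%), with and without mock replicate 2 (median -0.07). Over all loci 5.35% rose and 2.55% fell. When arrays were centred, 6 of the list fell, as did 1301 of all loci. LHCB2.3 (AT3G27690), an antenna protein, read 9.81, 9.82 and 10.28 in DEX, against 11.28, 11.46 and 11.32 in mock. Regulators of chloroplast development moved apart. CGA1 (AT4G26150), a GATA factor, read 7.97, 7.83 and 7.90 in DEX and 8.85, 8.62 and 8.87 in mock, a fall of 0.88. Its relative GNC (AT5G56860) read 9.05, 8.89 and 9.03 in DEX, against 8.46, 7.77 and 8.28 in mock, a rise of 0.82. CGA1 had a log2 fold change of 0.48 at 1 h, and its difference between the times, -1.37, passed (adjusted p = 0.000363). GLK2 (AT5G44190), an activator of photosynthesis genes, fell by 0.78 (SE 0.10, adjusted p = 0.000148).

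Of 17 sugar starvation and trehalose phosphate genes, 3 rose and 4 fell, with and without mock replicate 2 (2 and 6 when centred). TPS8 (AT1G70290), a trehalose phosphate synthase-like gene, read 7.63, 7.67 and 7.39 in DEX, against 8.31, 8.69 and 8.60 in mock. STP1 (AT1G11260), a hexose transporter, fell by 0.71 (SE 0.12), and GPT2 (AT1G61800), a plastid glucose-6-phosphate translocator, rose by 1.29 (SE 0.28, adjusted p = 0.00895), with mock arrays spread from 6.94 to 8.29.

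In the list of 13 growth bHLH and shade genes, 4 fell and none rose (5 without mock replicate 2; median -0.16). PAR1 (AT2G42870), an inhibitor of elongation in shade, read 8.33, 8.05 and 7.86 in DEX, against 9.40, 9.20 and 9.63 in mock. HBI1 (AT2G18300), a promoter of cell elongation, read 5.86, 6.41 and 6.31 in DEX and 7.33, 7.00 and 7.40 in mock. PIL6 (AT3G59060, PIF5), a phytochrome-interacting factor that DELLA proteins bind, fell by 0.65 (SE 0.11, adjusted p = 0.00213), and PIF3 (AT1G09530) had a log2 fold change of 0.22 (adjusted p = 0.517).

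Of 9 circadian clock genes and 10 touch and heat genes, 0 and 0 passed by limma, with 1 of each at an unadjusted p under 0.05. These counts rest on single arrays: 1 clock gene rose without mock replicate 3, 1 touch and heat gene rose without mock replicate 1 and 1 fell without DEX replicate 3. CCA1 (AT2G46830) and LHY (AT1G01060), morning factors of the clock, had log2 fold changes of -0.07 and 0.12. TCH2 (AT5G37770), a calmodulin-like touch gene, had 0.14 (adjusted p = 0.696).

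**Figure D5:**
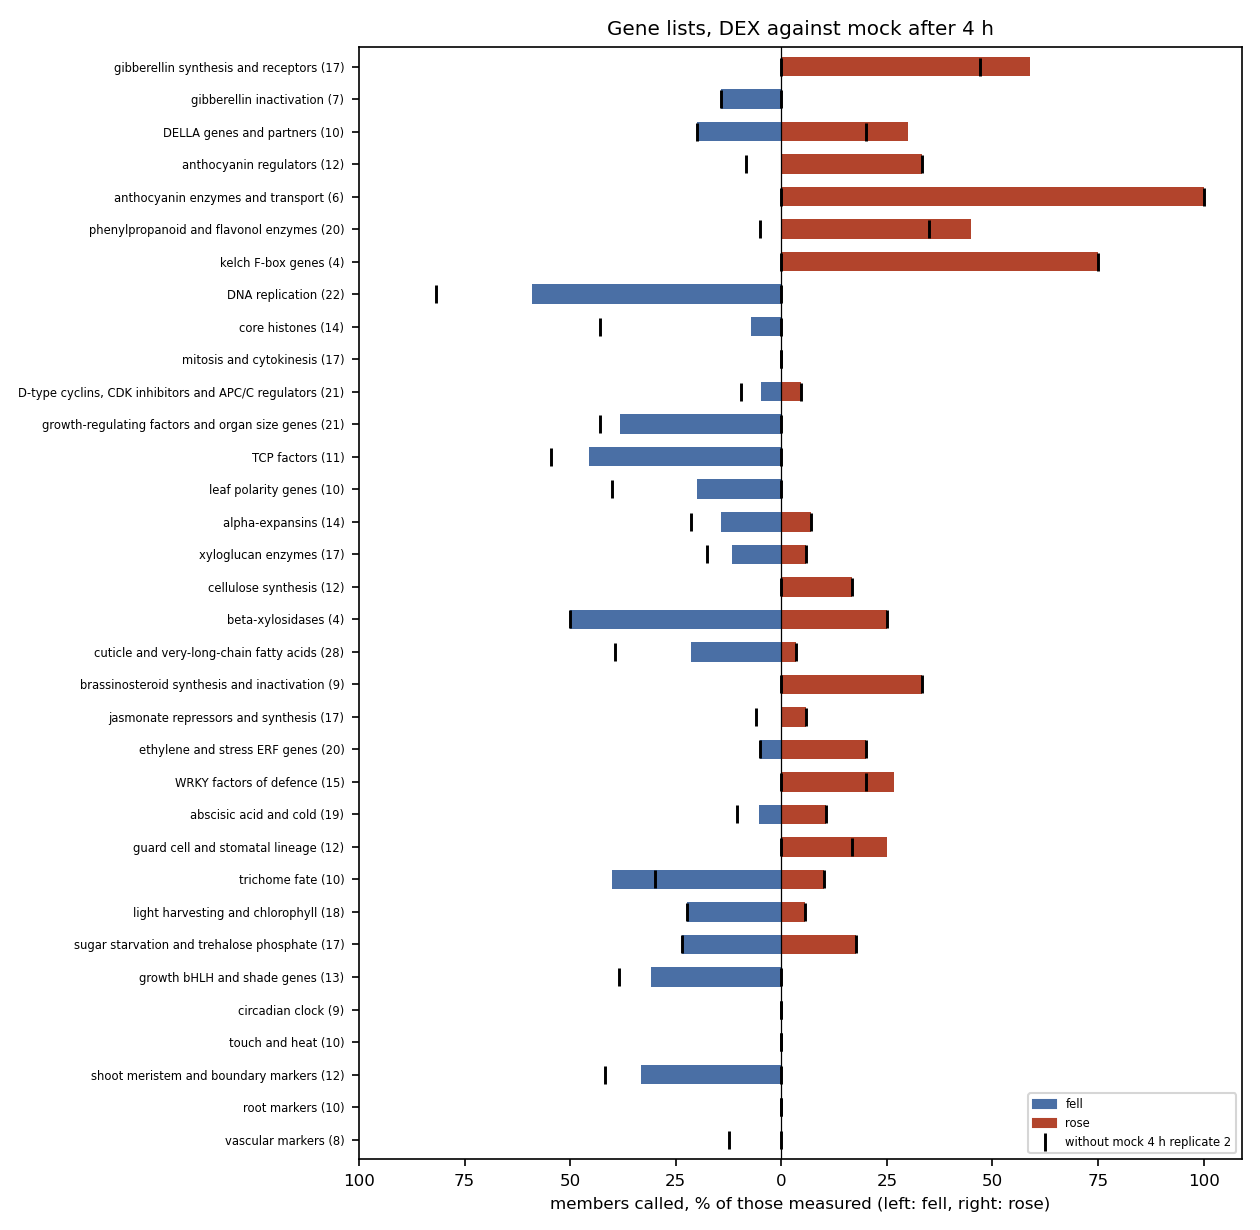
Share of measured members called in each of 34 gene lists (horizontal axis, %, falls to the left and rises to the right; number measured in brackets), with marks for the share without mock replicate 2. All 6 anthocyanin enzymes rose, 13 of 22 replication genes fell, and the mark for falls of core histones stands at 6 of 14 against a bar of 1.

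The 25 largest falls included genes outside these lists. DIR1 (AT5G48485), whose lipid transfer protein takes part in systemic resistance, read 8.82, 9.49 and 8.79 in DEX, against 10.63, 10.91 and 10.62 in mock. HLS1 (AT4G37580), needed for the apical hook of seedlings, read 6.67, 6.54 and 6.40 in DEX and 7.87, 7.73 and 7.90 in mock, a fall of 1.30 (SE 0.12, adjusted p = 9.09e-06). MAM1 (AT5G23010), which extends the side chain of methionine-derived glucosinolates, fell by 1.28 (SE 0.25, adjusted p = 0.00382), with DEX arrays at 7.63, 7.37 and 6.69, against 8.44, 8.22 and 8.89 in mock. ARF18 (AT3G61830), an auxin response factor, fell by 1.24 (SE 0.12), and ACR7 (AT4G22780), an ACT domain protein, by 1.30 (SE 0.14). LSH10 (AT2G42610), of the ALOG family of plant nuclear proteins, read 9.02, 8.93 and 8.44 in DEX, against 10.14, 10.14 and 9.88 in mock; its log2 fold change had been 0.16 at 1 h and differed between the times by -1.41 (adjusted p = 0.00158). Of the loci without a symbol, AT1G23390 (the kelch F-box locus above), AT2G03550 and AT2G20670 fell by 1.35 to 1.52. AT2G47440, AT4G20320, AT1G78170, AT5G45670, AT3G05600, AT5G40040, AT2G16580 and AT5G17700 fell by 1.21 to 1.29. All 25 largest rises and all 25 largest falls kept their calls whichever of the 6 arrays was left out. Their choice as called loci with large changes and groups that do not overlap favours this.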

How the data were processed

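Total RNA of leaf 3 was hybridized to Affymetrix ATH1 arrays. The authors deposited 1 log2 level per probe set and array, made with RMA according to the submitters' processing notes. RMA subtracts background, brings the arrays to 1 distribution and combines the probes into 1 level. Its version and the probe set definition are not given in the sources used here. The values run from 4.43 to 14.1. Arrays give no counts, so 3 arrays per group limit the precision (median SE of a log2 fold change 0.12).

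Of 21492 probe sets, 64 controls were left out and 21428 loci tested without a filter. Genes were named through NCBI RefSeq's table of TAIR10.1 (21231 matched, names only), and 221 loci that share all values with another were not named. limma 3.58.1 in R 4.3.3 was fitted to all 12 arrays with 1 mean per group (residual degrees of freedom 8, prior 5.85), as a two-sided test with Benjamini-Hochberg adjustment over 21428 loci. "Low" means a group mean under 5.79, the lower quartile of the lowest array. The fit was tested on simulated data with independent genes, 1 spread per gene in all arrays and no shifted array. That test therefore cannot show how an array such as mock replicate 2 affects the calls. Groups come from the labels' titles, 0 pairs of arrays were identical, and 0 further columns were found. Figures were drawn with matplotlib 3.10.9.

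The part of the study and its 34 lists (466 members used of 523, 6 dropped for an unmatched name, the rest not measured) were chosen with earlier results of these data known. No set test was made: lists are described by counts and medians. Genes named are the 25 largest rises and falls among called loci whose groups do not overlap, members of the lists, and up to 4 per symbol family with the smallest p. UGT74F1, UGT74F2, CRK19, ABCG22 and HB5, which lie outside this rule, and the families split by the reference's names (zinc finger homeodomain genes, HB genes without haemoglobin, cysteine-rich kinases) were chosen after values were seen. Alternatives were a replicate block, a minimum mean log2 level of 6, renewed quantile normalization, centring on the median, array weights, leaving out each 4 h array, and only the 6 arrays of 4 h; centring without mock replicate 2, the 6 arrays with a block, and list counts under each scaling and without each array were added after seeing the data. Promoter motifs and protein sequences were not analysed here.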

Additional observations from a re-analysis of the deposited data

Results flagged for a closer look

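Of 184 genes named in the report, 70 responded to dexamethasone differently after 4 h and after 1 h, by the difference of the log2 fold changes (4 h minus 1 h) in the same limma fit, with adjusted p up to 0.047 over all loci. Over all loci, 274 (1.28%) passed for this difference. In each of the 70 the response at 4 h was the larger in size, 13 were called at 1 h too, and 19 had the opposite sign at 1 h. Log2 fold changes of these 19 at 1 h included -0.0009 for TT4 and 0.01 for KNAT1, and 0.48 for CGA1. Among all loci, 0 were called at both times in opposite directions. Many of the genes were named for large changes at 4 h, so the choice favoured larger responses at 4 h. The differences are given in brackets. Each can hold a change between the times in the DEX leaves, in the mock leaves or in both. The groups of 3 arrays are too small to test single arrays as outliers.

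Differences above 0 were those of genes that rose. In the flavonoid and anthocyanin group they were DFR (3.42), UF3GT (2.85), TT7 (2.64), PAP1 (2.52), PAL1 (2.51), UGT78D2 (2.43), GSTF12 (2.2), MYBL2 (2.01), TT8 (1.80), AT5MAT (1.77), F3H (1.75), TT4 (1.61), C4H (0.96) and PAL2 (0.82). Gibberellin genes with a larger rise were GA20OX3 (2.95), GID1B (1.14) and GA3 (0.82), and hormone enzymes and sugar transferases were BR6OX2 (1.58), DWF4 (0.99), UGT73C1 (2.08), UGT74D1 (1.01) and UGT85A1 (0.60). Among transcription regulators, MYB56 (2.18), MEE3 (1.61), WRKY15 (1.35), LBD40 (1.35), TTG2 (1.19), NAC047 (1.08), BZS1 (0.92) and WRKY27 (0.84) did so. The others were CRK12 (2.79), AT4G14090 (2.78), PUP1 (2.70), LTI78 (1.92), OPT1 (1.77), AT5G65040 (1.71), CYP71B22 (1.54), XTH15 (1.46), AT4G15160 (1.43) and SAUR36 (1.03).

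Differences below 0 were those of genes that fell. Growth and replication genes were KLU (-1.78), GRF5 (-1.23), GIF1 (-0.76), GRF3 (-0.70), CDT1A (-0.72), CYCA3;1 (-0.72) and PCNA1 (-0.62). Transcription regulators were KNAT1 (-1.34), PAR1 (-1.32), LSH10 (-1.41), CGA1 (-1.37), GLK2 (-0.66), HB33 (-1.16), HB25 (-1.01) and ARF18 (-0.97). Wall genes were BXL1 (-1.31), BXL2 (-1.23) and EXPA3 (-1.12). The others were DIR1 (-1.50), ABCG35 (-1.23), LHCB2.3 (-1.13), ADS1 (-1.12), AT5G40040 (-1.11), AT5G45670 (-0.98), ACR7 (-0.97), HLS1 (-0.96), AT3G05600 (-0.93), AT1G23390 (-0.84), AT2G47440 (-0.79) and TPS8 (-0.77).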

How the results depend on the processing

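The count of 1693 loci called at 4 h fell to 994 with only the 6 arrays of 4 h in the fit and to 1120 when a replicate block was added to those 6, with 684 and 757 rises (1146 reported) and 310 and 363 falls (547 reported). The falls numbered 1048 after renewed quantile normalization, 1301 with arrays centred on the median, 1014 without mock replicate 2 and 1138 with both centring and that array left out. Leaving out each array in turn gave 1244 to 2022 calls, 825 to 1338 rises and 419 to 1014 falls. For the difference between 4 h and 1 h (274 loci), array weights gave 465, and leaving out each 4 h array 211 to 412, the highest without mock replicate 2; centring with that array left out gave 405. Of 155 named calls, 136 held under each alternative run that included the gene. The run with a minimum mean log2 level of 6 included 175 of the 184 named genes. Of the 155, 11 were lost without at least 1 array, and 0 changed direction under any run. Of 29 named genes that were not called, 1 passed under at least 1 alternative. The cause of these shifts was not tested beyond what each setting changes (fewer arrays, another scale).

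The groups share replicate numbers. Deviations of the same-numbered DEX and mock arrays of 4 h correlated at -0.01, 0.19 and 0.10 across genes. Those of differently numbered arrays ran from -0.17 to 0.13. The numbers were not taken to pair the arrays in the main fit, and these values do not decide whether they do. A replicate block on all 12 arrays gave 1697 calls, 1138 rises and 559 falls, and 267 loci for the difference between the times. Signal over background is not in the deposited values, so what it limits was not tested.

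In the lists, falls that differed by over 1.5 times from the reported counts were, when arrays were centred, 1 each among anthocyanin regulators, phenylpropanoid and flavonol genes, mitosis, brassinosteroid, jasmonate and root genes, 7 of the core histones, 4 of the D-type cyclin list, of polarity genes and of expansins, 13 of the cuticle genes, 2 of the abscisic acid list and 7 of the meristem markers. Renewed quantile normalization gave 1 fall each among both flavonoid lists, jasmonate, root and vascular genes, 3 histones, 3 of the D-type cyclin list, 4 expansins, 11 cuticle genes and 0 of the abscisic acid list, with 2 jasmonate rises. Rises of cellulose synthesis genes numbered 0 when centred and 1 after quantile normalization.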
